A study of Mus musculus with 4 samples.

Results

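The matrix metalloproteinases (MMPs), the ADAMTS proteases and ADAMTS-like proteins, and the tissue inhibitors of metalloproteinases (TIMPs) were examined in the colon of mice given maltodextrin. Members were the genes of the authors' deposited comparison table with a symbol beginning Mmp, Adamts or Adamtsl followed by a number, and Timp1 to Timp4. The rule found 51 probe sets for 50 of the 30861 named genes: 22 MMP genes, 19 ADAMTS genes, 5 ADAMTS-like genes and 4 TIMP genes. Adamts14 had 2 probe sets, and the one with the higher mean was kept.

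GeneChip Mouse Gene 2.0 ST arrays measured total RNA from the colon of Balb/c mice after 45 days. Maltodextrin mice (2 arrays, numbered 3 and 4) drank water with 5% maltodextrin, a starch-derived food additive, and control mice (2 arrays, numbered 1 and 2) drank water without it. All 4 samples share strain, tissue and duration, and the labels give neither age nor sex and do not say whether each array is 1 mouse, so the p-values rest on the spread within each pair of arrays, possibly a technical one. The deposited values are log2 intensities.

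MMPs are zinc-dependent endopeptidases made as inactive zymogens, in which a cysteine of the propeptide blocks the active site until it is cleaved away. Secreted MMPs cut collagens, gelatins, laminins and cytokines, and membrane-type MMPs act at the cell surface. ADAMTS enzymes carry thrombospondin repeats and cut proteoglycans, procollagens and blood or cartilage glycoproteins, whereas ADAMTS-like proteins lack the protease domain and bind the microfibrils of the matrix. TIMPs are small secreted proteins that plug the active site. In the gut these enzymes take part in matrix turnover, wound repair and inflammation.

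Promoters of 6 members are shown, and 3 of these are from a gene cluster whose promoters differ from those of the other members. The other 3 are from genes called higher on the maltodextrin arrays by the nominal criterion given below. Mmp2, also called higher, had no promoter sequence under its symbol. In the RefSeq table (GRCm38.p6), 10 MMP genes lie side by side on chromosome 9 from 7272514 to 7699585, a stretch of 427.1 kb with 0 other protein-coding genes inside it. Promoter sequences (the 250 bases before a start) were matched by symbol for 35 of the 50 members, and for all 10 of the chromosome 9 genes. The sequences are of the reference strain, C57BL/6J, not of Balb/c. Capitals mark 3 motifs searched on both strands, which do not overlap in the 6 shown: the AP-1 site TGAGTCA or TGACTCA, the TATA box TATAAA or TTTATA, and the GC box GGGCGG or CCGCCC. Mmp7 has a pair of starts in the table, and the first is shown.
Mmp13 (chr9:7272264-7272513, plus strand): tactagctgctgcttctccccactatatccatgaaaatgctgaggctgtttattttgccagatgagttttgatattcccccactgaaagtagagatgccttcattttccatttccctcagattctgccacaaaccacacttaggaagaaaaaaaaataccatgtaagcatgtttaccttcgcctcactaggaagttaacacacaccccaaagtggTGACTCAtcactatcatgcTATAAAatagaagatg
Mmp10 (chr9:7502092-7502341, plus strand): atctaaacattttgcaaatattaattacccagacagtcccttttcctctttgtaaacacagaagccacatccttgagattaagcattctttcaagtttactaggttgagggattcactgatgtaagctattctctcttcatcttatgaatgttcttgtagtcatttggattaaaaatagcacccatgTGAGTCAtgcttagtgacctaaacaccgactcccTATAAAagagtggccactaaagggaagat
Mmp7 (chr9:7691840-7692089, plus strand): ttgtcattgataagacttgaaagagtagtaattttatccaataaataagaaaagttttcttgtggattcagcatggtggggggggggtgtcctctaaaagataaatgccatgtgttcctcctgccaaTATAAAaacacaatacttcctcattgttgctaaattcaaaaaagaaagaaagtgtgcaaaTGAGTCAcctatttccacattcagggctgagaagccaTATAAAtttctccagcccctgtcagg
Timp1 (chrX:20869916-20870165, plus strand): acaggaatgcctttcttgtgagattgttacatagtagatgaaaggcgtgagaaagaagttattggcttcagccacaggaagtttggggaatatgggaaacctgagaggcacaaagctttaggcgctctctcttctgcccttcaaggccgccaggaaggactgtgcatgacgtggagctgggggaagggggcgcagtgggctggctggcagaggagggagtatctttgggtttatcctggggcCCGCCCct
Mmp25 (chr17:23645270-23645519, minus strand): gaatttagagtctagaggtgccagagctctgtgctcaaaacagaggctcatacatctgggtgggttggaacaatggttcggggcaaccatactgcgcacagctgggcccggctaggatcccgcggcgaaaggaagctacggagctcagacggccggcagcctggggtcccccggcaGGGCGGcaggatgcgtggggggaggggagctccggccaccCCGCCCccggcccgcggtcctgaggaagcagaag
Adamts2 (chr11:50601835-50602084, plus strand): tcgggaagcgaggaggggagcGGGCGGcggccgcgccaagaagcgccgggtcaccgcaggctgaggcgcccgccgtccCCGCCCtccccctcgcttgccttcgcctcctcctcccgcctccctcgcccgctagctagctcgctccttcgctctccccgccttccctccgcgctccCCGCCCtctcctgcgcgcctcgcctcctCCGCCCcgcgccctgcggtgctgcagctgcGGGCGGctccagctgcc
The first 3 belong to chromosome 9 genes and hold an AP-1 site and a TATA box close to the start. These genes were not called, although both maltodextrin arrays lay above both controls for Mmp13 and Mmp10. The last 3 belong to genes called higher on the maltodextrin arrays and hold GC boxes and neither other motif. In Mmp13 the AP-1 site begins 35 bases before the start and the TATA box 16 bases before it. In Mmp10 these distances were 63 and 29 bases, and in Mmp7 63 and 26 bases, with a further TATA box at 123 bases. The GC box of Timp1 begins 8 bases before the start, Mmp25 has a pair at 74 and 34 bases, and Adamts2 has 5.

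Counting a gene if any of its starts held a motif, 7 of 10 chromosome 9 genes held an AP-1 site, 7 of 10 a TATA box, 6 of 10 both and 0 a GC box. Of all 27025 genes with a promoter in the table, 5.16% held the AP-1 site, 14.3% the TATA box, 1.01% both and 35.4% a GC box. Among the other 25 members with a promoter, 0 held the AP-1 site, 3 the TATA box and 19 (76%) a GC box. The chromosome 9 promoters had 37.2% to 53.2% G and C with a median of 40.2%, against a median of 64.8% in the other members and 52.4% in all promoters. Motif matches describe these windows only, and no binding was measured.

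Of the 50 members, 4 were higher on the maltodextrin arrays and 0 lower at a nominal criterion (a fold of 1.5 or more and, by limma, an unadjusted p below 0.05). They were Mmp2 (gelatinase A), Mmp25 (a leukocyte membrane-type MMP), Timp1 (an inducible inhibitor) and Adamts2 (a procollagen-processing enzyme). Over all 32202 named probe sets 8.51% were higher at this criterion and 3.56% lower, so the 8% of members that were higher is near the background. In a separate limma fit of the probe sets with a mean log2 of at least 5, 2 of 35 members (5.71%) were higher. The share of all probe sets in that fit was 14%. Timp1, with a mean of 4.83, was removed by the filter. Adamts2 was kept, but its unadjusted p by limma was 0.0538 in that fit. No member passed an adjusted p of 0.05, which 0 of all named probe sets did. The smallest adjusted p of a member was 0.2104, that of Mmp2, by limma with Benjamini-Hochberg adjustment. At an unadjusted p under 0.05 there were 5 members, against 14.6% of all named probe sets (4698). With either control array left out, 905 (without control 1) and 671 (without control 2) of all named probe sets passed the adjusted threshold by limma, in fits whose spread comes from the maltodextrin pair alone. With 2 arrays a group, an exact permutation test cannot give a two-sided p under 0.333, and none was made for single genes.

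The median difference of the members was 0.07 on the log2 scale (maltodextrin minus control), against -0.04 for all named probe sets. Both maltodextrin arrays lay above both control arrays for 18 members and below them for 9. These are 36% and 18% of the members, beside 25.6% and 24.7% of all named probe sets. The families differed in these counts. Among the MMPs 8 of 22 (36.4%) were above and 1 (4.55%) below, and among the ADAMTS enzymes 4 of 19 (21.1%) above and 8 (42.1%) below. Of the smaller families, the ADAMTS-like genes had 3 of 5 (60%) above and 0 below, and the TIMPs 3 of 4 (75%) above and 0 below. The difference between families was not tested.

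As a guide to background, 1518 olfactory, vomeronasal and taste receptor probe sets were used, genes with little expected expression in colon, whose mean log2 intensities had a 95th percentile of 5.89. The means of 22 members lay above it and those of 28 did not. With the receptor probe sets that match 1 place only, a guide chosen after the data were seen, the percentile was 5.03 and 35 members lay above it. Intensities of different probe sets are not comparable as amounts of RNA, so levels are compared below only within a gene.

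**Figure D1:**
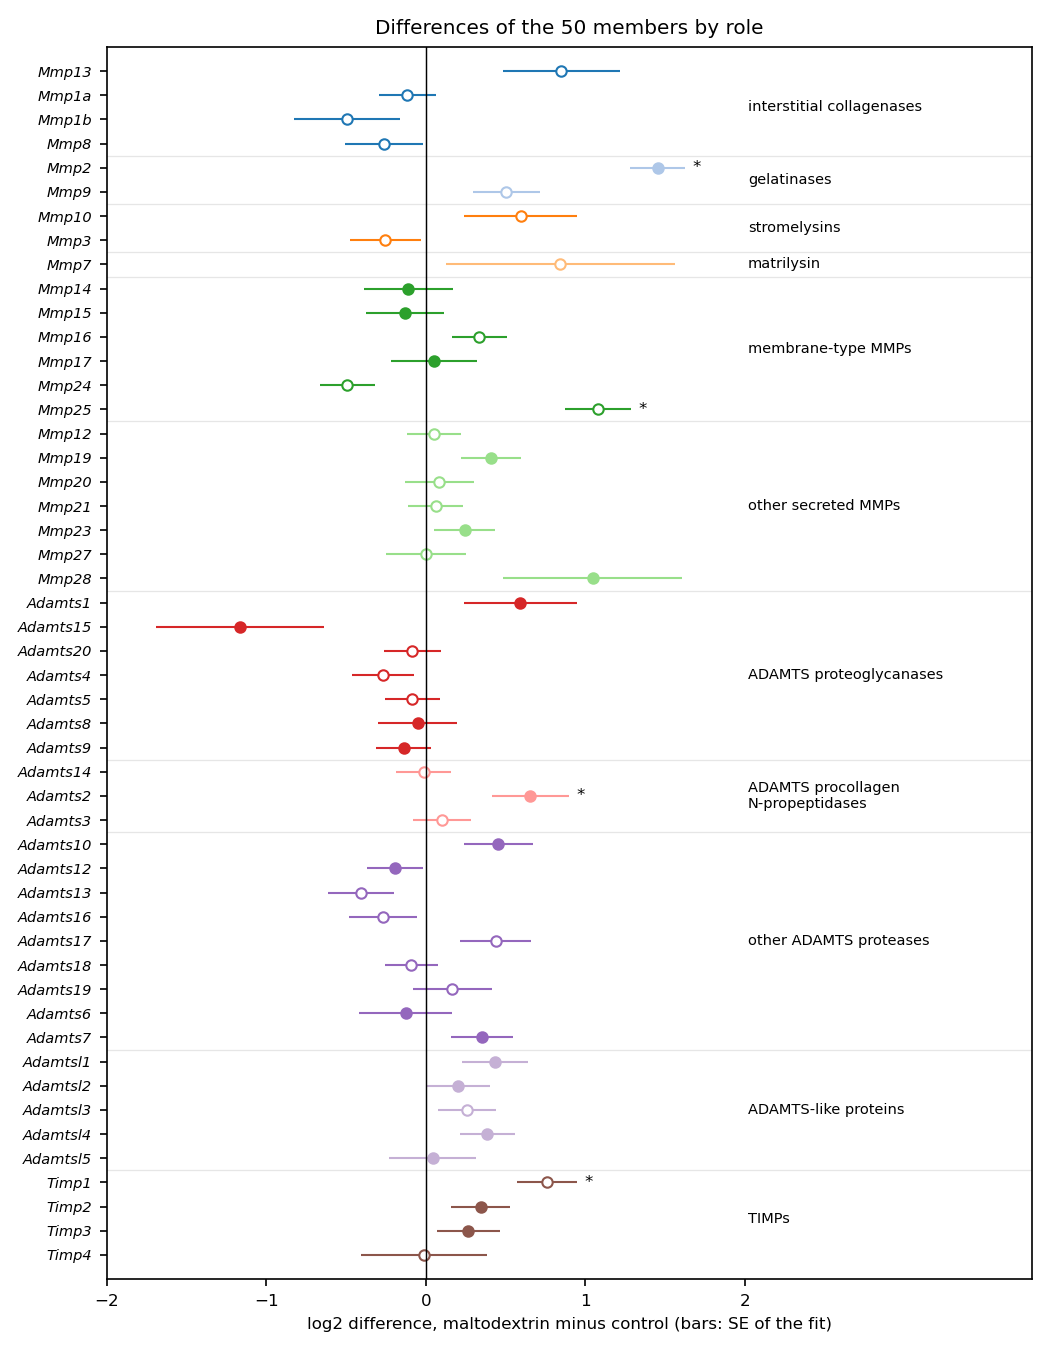
Differences of the 50 members between the groups (log2, maltodextrin minus control, horizontal axis), grouped by role down the page, with bars for the SE of the limma fit over 2 and 2 arrays. Filled points have a mean above the receptor percentile, open points do not, and asterisks mark the 4 members at the nominal criterion, which lie at 0.65 to 1.45.

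The gelatinases degrade denatured collagen and basement membrane, and 1 of the 2, Mmp2, was at the nominal criterion, with the largest difference of the 50 members. Mmp2, made mainly by stromal cells, had log2 intensities of 10.20 and 10.28 in maltodextrin, against 8.84 and 8.74 in control. Each pair lay close together and the groups were far apart. Mmp2 averaged 10.24 ± 0.05 in maltodextrin and 8.79 ± 0.07 in control (SD, n = 2 each), a difference of 1.45 (SE 0.17) or 2.74-fold, with an adjusted p of 0.2104 by limma. Its 95% interval ran from 0.999 to 1.91. Leaving out any 1 array kept the difference between 1.40 and 1.501. The gene (transcript cluster 17503825) lies on chromosome 8 from 92827290 to 92853421 in GRCm38.p6. In bulk tissue, more cells of a type and more RNA per cell cannot be told apart.

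Mmp9, the gelatinase of neutrophils and macrophages, lay closer to background. It measured 5.97 and 5.64 in maltodextrin, against 5.20 and 5.39 in control. The groups did not overlap, but the difference of 0.51 (SE 0.21) did not meet the criterion (unadjusted p = 0.0646 by limma).

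Markers of the stromal and myeloid cells that make gelatinases were measured on the same arrays. Of 9 fibroblast markers, 2 were higher (Lum and Dpt) and 0 lower at the nominal criterion. Of the 9 differences, 6 were above 0. The 3 below were those of the collagen genes Col1a1, Col1a2 and Col3a1, at -0.85 (SE 0.36), -0.44 (SE 0.41) and -1.11 (SE 0.74). The summed fibroblast marker intensity (log2) was 13.29 and 13.24 in maltodextrin, against 12.85 and 13.03 in control. Dcn and Dpt, the brightest of the list, weighed most in this sum. Of 8 measured macrophage markers, 6 were higher and 0 lower, and their sum was 11.31 and 11.67 in maltodextrin, against 10.45 and 10.14 in control. The calls of C1qb, C1qc, Csf1r and Mrc1 were lost without maltodextrin 4, with differences of 1.51, 0.75, 0.69 and 0.83. Higher calls made up 22.2% of the fibroblast and 75% of the macrophage markers, beside 8.51% of all named probe sets. The fibroblast and macrophage sums were higher on both maltodextrin arrays, as were those of the plasma cell, mast cell, T cell and endothelium lists. The sum over all named probe sets was also higher there, at 22.72 and 22.71 in maltodextrin, against 22.58 and 22.60 in control. The part of any of these cell types in the Mmp2 difference was not tested.

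Pro-MMP2 is activated at the cell surface by MMP14 in a complex with TIMP2. Neither partner differed as Mmp2 did. Mmp14 measured 8.31 and 8.43 in maltodextrin, against 8.14 and 8.82 in control, and the control pair enclosed the maltodextrin pair. Its difference was -0.11 (SE 0.28), and 0.23 without control 2. Timp2 measured 9.87 and 9.77 in maltodextrin, against 9.36 and 9.59 in control. Timp2 did not overlap between the groups, with a difference of 0.34 (SE 0.19) and a 95% interval from -0.15 to 0.83. That interval ends below the lower bound of the Mmp2 interval, as does that of Mmp14 (-0.85 to 0.63). The difference between the genes' differences was not itself tested.

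**Figure D2:**
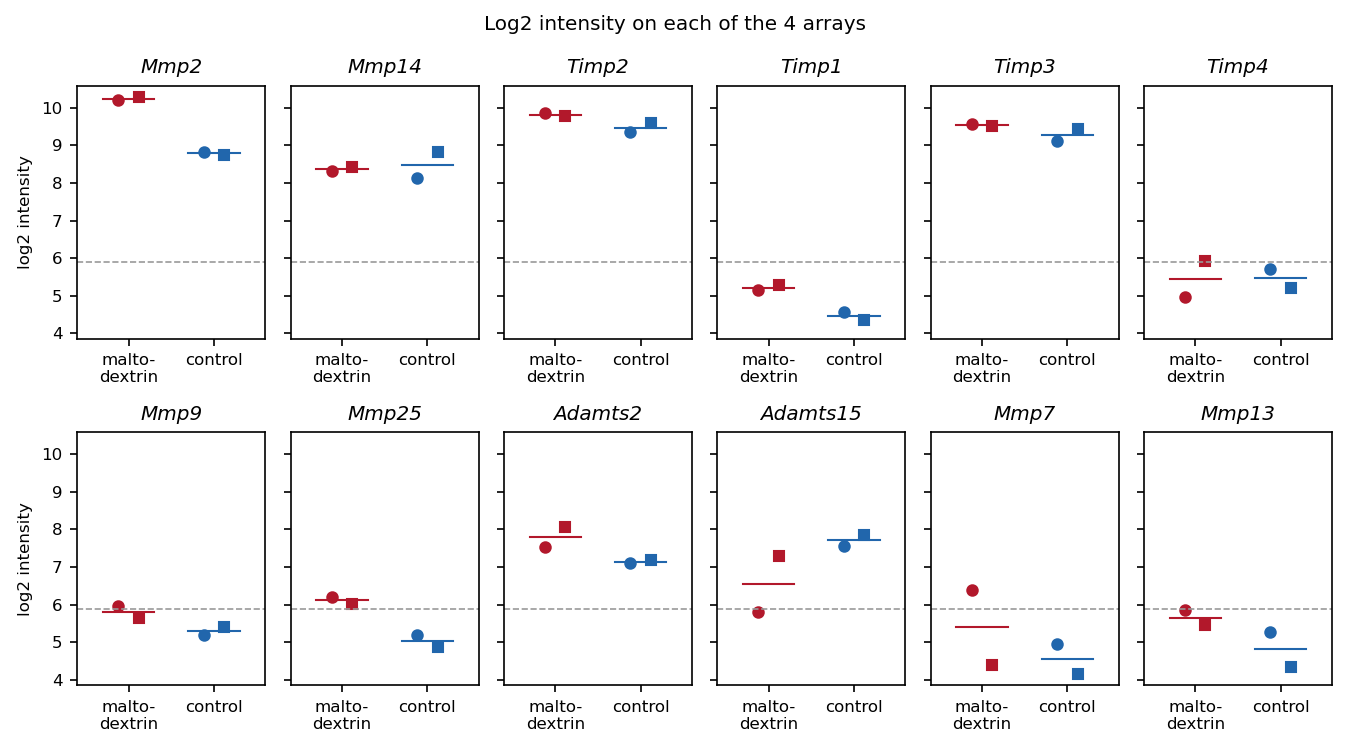
Log2 intensity (vertical axis) of 12 members on each array, with maltodextrin left and control right in each panel, circles for the lower-numbered array of a group, squares for the other and lines for group means. The dashed line is the receptor 95th percentile of 5.89, and the Mmp2 groups are separate while those of Mmp14 and Timp4 overlap.

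Among the membrane-type MMPs, 1 of 6 was at the nominal criterion. Mmp25, a lipid-anchored enzyme first described in leukocytes, measured 6.21 and 6.02 in maltodextrin, against 5.19 and 4.88 in control. Both control values were below the receptor percentile and both maltodextrin values above it. The difference was 1.08 (SE 0.20), 2.11-fold, with an adjusted p of 0.239 by limma, and it stayed between 0.92 and 1.23 with any 1 array left out. Mmp25 (chromosome 17, 23628315 to 23645269) overlaps Bicdl2 in the annotation. The probe set under that gene's older symbol, Ccdc64b, measured 5.72 and 5.71 in maltodextrin, against 5.50 and 6.66 in control.

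Of 8 neutrophil markers, 7 had a mean not above the receptor percentile, 1 was higher at the nominal criterion and 0 lower. That 1 is 12.5% of the list, beside 8.51% of all named probe sets. The higher one was Retnlg, a resistin-like gene of neutrophils, at 7.26 and 6.72 in maltodextrin, against 4.31 and 3.22 in control, a difference of 3.22 (SE 0.43). The calprotectin subunit S100a8 was dim on all arrays and measured 3.11 and 2.94 in maltodextrin, against 3.13 and 3.28 in control. S100a9, also dim, differed by -0.57 (SE 0.21), and its groups did not overlap. Of the 8 differences 4 were above 0 and 4 below. The groups did not overlap for 3 markers in each direction (37.5%, beside 25.6% higher and 24.7% lower of all named probe sets). The summed neutrophil marker intensity (log2) was 10.11 and 11.28 in maltodextrin, against 12.09 and 10.96 in control, and Ly6g, the single marker above the percentile, made up most of it. A part of neutrophils in the Mmp25 difference was not tested.

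The other membrane-type genes did not meet the criterion. Mmp24, known mainly from neurons, measured 4.85 and 4.91 in maltodextrin, against 5.32 and 5.42 in control. It was the single MMP with both maltodextrin arrays below both controls. The difference of -0.49 (SE 0.17) had an unadjusted p of 0.0382 by limma and fell short of the fold threshold. Mmp15, a membrane-type enzyme also of epithelia, measured 8.59 and 8.85 in maltodextrin, against 8.61 and 9.09 in control. Its difference of -0.13 (SE 0.25) turned to 0.11 without control 2 and to 0.002 without maltodextrin 3. Mmp16 and Mmp17 differed by 0.34 (SE 0.17) and 0.05 (SE 0.27).

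The collagenases, stromelysins and matrilysin among the members all lie in the chromosome 9 cluster, along with Mmp12, Mmp20 and Mmp27. Of 3 stromelysins looked for, 2 were measured. None of the 10 cluster genes was at the nominal criterion in either direction, and none had a mean above the receptor percentile. Both maltodextrin arrays exceeded both controls for 2 of them, Mmp13 and Mmp10, and 0 were below. These are 20% and 0% of the cluster, beside 25.6% and 24.7% of all named probe sets. The cluster's median difference was 0.03, with a range from -0.49 to 0.85.

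Mmp13, collagenase-3, had the largest difference of the cluster. It measured 5.85 and 5.45 in maltodextrin, against 5.26 and 4.35 in control. The low value was control 2, and the difference of 0.85 (SE 0.37) was 0.39 without that array and 1.30 without control 1. It met the criterion after quantile normalization applied again, after centring on array medians and without control 1. Mmp10, stromelysin-2, was also lowest on control 2, with 5.34 and 5.60 in maltodextrin, against 5.33 and 4.41 in control. Its difference of 0.59 (SE 0.36) was 0.14 without control 2 and 1.05 without control 1.

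Mmp7, matrilysin, which in the mouse small intestine activates the defensins of Paneth cells, was set by 1 array. It measured 6.38 and 4.40 in maltodextrin, against 4.94 and 4.16 in control. Only maltodextrin 3 was above the receptor percentile, and maltodextrin 4 lay between the controls. The difference of 0.84 (SE 0.72) was -0.15 without maltodextrin 3 and 1.83 without maltodextrin 4.

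Genes of inflamed colon in this cluster stayed dim in both groups. Mmp3, stromelysin-1, measured 4.05 and 3.62 in maltodextrin, against 4.05 and 4.13 in control. Mmp12, the macrophage elastase, measured 5.34 and 5.39 in maltodextrin, against 5.34 and 5.28 in control. Its difference was 0.05 (SE 0.17), with a 95% interval from -0.39 to 0.50, beside the higher macrophage markers given above. Mmp8, the collagenase of neutrophils, differed by -0.26 (SE 0.25). At values near background a change in these genes may not be detectable.

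**Figure D3:**
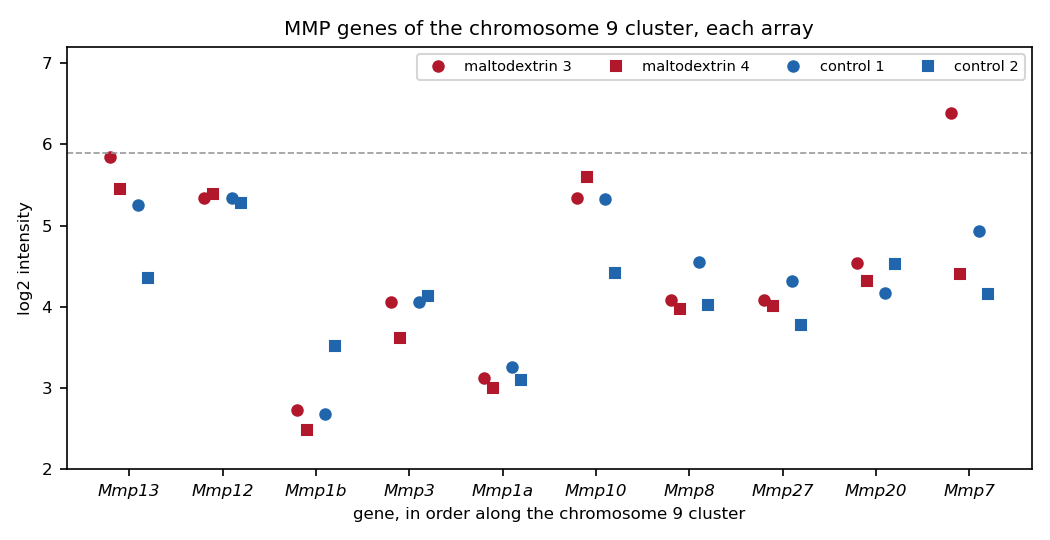
Log2 intensity (vertical axis) of the 10 MMP genes of the chromosome 9 cluster in genome order (horizontal axis), with maltodextrin arrays in red left of control arrays in blue. The dashed line is the receptor 95th percentile of 5.89, and the single point above it is Mmp7 on maltodextrin 3 at 6.38.

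Of the other secreted MMPs outside the cluster, besides the gelatinases, none met the criterion. Mmp19, a basement membrane protease, measured 6.98 and 7.25 in maltodextrin, against 6.70 and 6.72 in control, a difference of 0.41 (SE 0.19). Mmp23, which is anchored by its propeptide, measured 7.05 and 6.89 in maltodextrin, against 6.61 and 6.85 in control, a difference of 0.24 (SE 0.19). Neither gene's groups overlapped and neither met the criterion. Mmp28, epilysin, an MMP of epithelia, was the most variable, with 6.85 and 6.09 in maltodextrin, against 4.70 and 6.15 in control. The groups overlapped, and the difference of 1.04 (SE 0.56) rested on the low value of control 1. Mmp21 was below the receptor percentile on every array, with a difference of 0.06.

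The ADAMTS proteoglycanases cut versican and aggrecan, and 0 of 7 were at the nominal criterion. Of the 7, 6 had a difference below 0, and 4 had both maltodextrin arrays below both controls (Adamts4, Adamts5, Adamts9 and Adamts15). Those 4 are 57.1% of the list, beside 24.7% of all named probe sets. Adamts4 and Adamts5 had means below the receptor percentile and differed by -0.27 (SE 0.20) and -0.09 (SE 0.17). Adamts15 had the lowest difference of all 50 members. It measured 5.80 and 7.29 in maltodextrin, against 7.57 and 7.84 in control. Maltodextrin 3 was far below the other 3 arrays, and the difference of -1.16 (SE 0.53; unadjusted p = 0.0825 by limma) was -0.42 without maltodextrin 3 and -1.91 without maltodextrin 4. Adamts9 measured 6.61 and 6.50 in maltodextrin, against 6.67 and 6.73 in control, with a difference of -0.14 (SE 0.17). Adamts1, the exception, measured 7.45 and 6.65 in maltodextrin, against 6.19 and 6.72 in control, and its groups overlapped. Their substrate versican (Vcan) differed by 0.42 (SE 0.18), and aggrecan (Acan) was near background at 4.06 and 3.87 in maltodextrin, against 4.04 and 3.88 in control.

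Adamts2, which removes the amino-terminal propeptide of fibrillar procollagens, was the single ADAMTS enzyme at the nominal criterion. It measured 7.54 and 8.06 in maltodextrin, against 7.11 and 7.18 in control. The controls were close together, and the groups did not overlap. The difference was 0.65 (SE 0.24), 1.57-fold, with an unadjusted p of 0.0463 and an adjusted p of 0.337 by limma. This call was lost without control 1 (0.62), without control 2 (0.69) and without maltodextrin 4 (0.39). It was also lost with quantile normalization applied again (0.48), with all rows fitted, with trend and robust eBayes, with the filter on mean log2, by the equal-variance test, by the authors' deposited p-value and with a fold of at least 2. The other procollagen N-propeptidases, Adamts3 and Adamts14, differed by 0.10 and -0.01, both below the receptor percentile. The procollagen genes Col1a1, Col1a2 and Col3a1, whose products these enzymes trim, differed by -0.85 (SE 0.36), -0.44 (SE 0.41) and -1.11 (SE 0.74), with control 2 the highest array for each.

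Of the 9 other ADAMTS proteases 0 were at the criterion, with 3 above and 4 below the controls on both arrays. These are 33.3% and 44.4% of the list, beside 25.6% and 24.7% of all named probe sets. Adamts17, above, and Adamts13, Adamts16 and Adamts18, below, had means under the receptor percentile. Adamts10, a binder of fibrillin, measured 6.70 and 6.45 in maltodextrin, against 6.29 and 5.95 in control, a difference of 0.45 (SE 0.22). Adamts7 and Adamts12 both cut the cartilage protein COMP, and they differed in opposite directions. Adamts7 measured 6.36 and 6.05 in maltodextrin, against 5.84 and 5.87 in control, while Adamts12 measured 6.03 and 6.19 in maltodextrin, against 6.32 and 6.29 in control. Their differences of 0.35 (SE 0.20) and -0.19 (SE 0.18) did not meet the criterion. Adamts13, which cuts von Willebrand factor, differed by -0.41 (SE 0.21), near background, and its substrate gene Vwf by -0.47 (SE 0.18).

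All 5 ADAMTS-like genes had a difference above 0, and 0 met the criterion. Adamtsl4, a fibrillin-binding protein of the microfibril, measured 7.34 and 7.50 in maltodextrin, against 7.03 and 7.04 in control. Its difference was 0.39 (SE 0.17; unadjusted p = 0.083 by limma). Adamtsl1 measured 6.73 and 6.38 in maltodextrin, against 6.07 and 6.17 in control, a difference of 0.43 (SE 0.21). The remaining 3 ranged from 0.04 to 0.26. The fibrillin genes Fbn1 and Fbn2 differed by -0.44 (SE 0.19) and -0.22 (SE 0.24).

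Of the inhibitors, 1 of 4 was at the nominal criterion. Timp1, the inducible inhibitor, measured 5.14 and 5.27 in maltodextrin, against 4.55 and 4.34 in control. All 4 values lay below the receptor percentile, although the groups were separate. The difference was 0.76 (SE 0.19), 1.69-fold, with an adjusted p of 0.26 by limma. It ranged from 0.65 to 0.87 with any 1 array left out, and the call was lost without either maltodextrin array. Timp3, the matrix-bound inhibitor that also blocks ADAM and ADAMTS enzymes, measured 9.57 and 9.51 in maltodextrin, against 9.12 and 9.43 in control. Its difference of 0.27 (SE 0.20) was 0.11 without control 1 and 0.42 without control 2. Timp4 measured 4.97 and 5.92 in maltodextrin, against 5.72 and 5.20 in control, and the difference of -0.01 (SE 0.39) changed sign with the array left out.

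In the annotation Timp1, Timp3 and Timp4 lie inside the synapsin genes Syn1, Syn3 and Syn2. The probe sets of the synapsin genes differed by 0.35 (SE 0.26), 0.21 (SE 0.24) and -0.30 (SE 0.27) in that order. None of these was at the criterion. Syn1 measured 6.83 and 6.45 in maltodextrin, against 6.06 and 6.52 in control, and its groups overlapped where those of Timp1 did not.

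**Figure D4:**
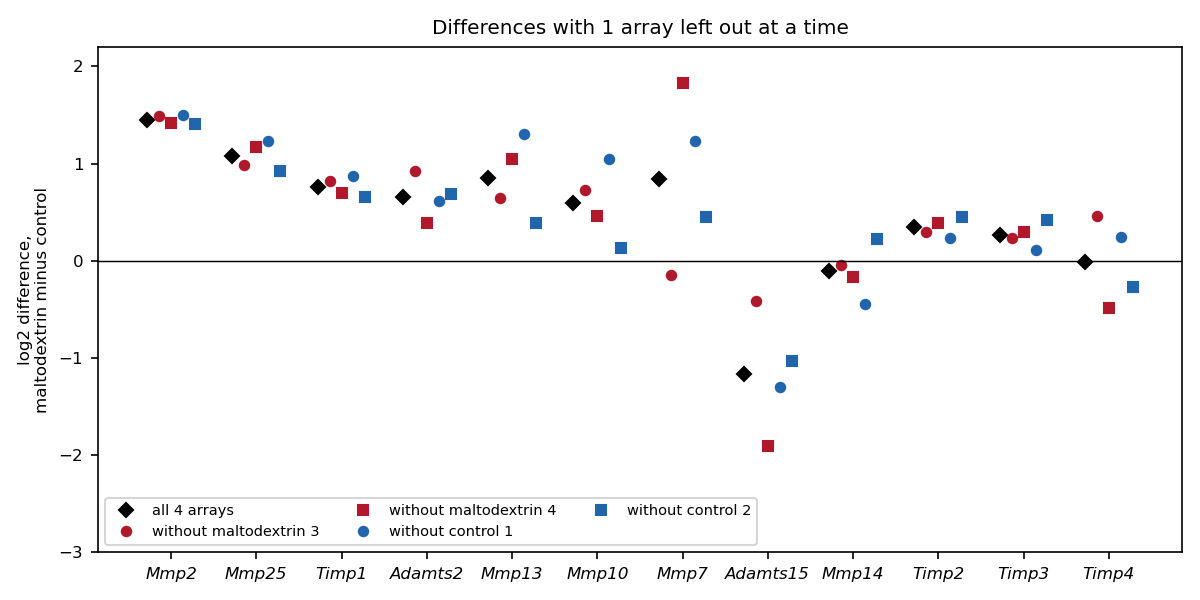
Difference between the groups (log2, maltodextrin minus control, vertical axis) for 12 members with all 4 arrays and with 1 array left out at a time. Mmp2 stays between 1.40 and 1.501, while Mmp7 runs from -0.15 to 1.83 and Adamts15 from -1.91 to -0.42.

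Genes that act with these enzymes were taken from 5 lists (55 genes, all measured). Of these, 13 met the nominal criterion as higher and 0 as lower, 23.6% against the 8.51% of all named probe sets given above, and 0 passed the adjusted threshold. In a separate limma fit of the probe sets with a mean log2 of at least 5, 11 of 44 related genes (25%) were higher. The share of all probe sets in that fit was 14% (2490 of 17845). The 13 genes all passed this filter, so the lower count came from the new fit. The median difference over the lists was 0.31, and 24 of the genes had both maltodextrin arrays above both controls while 7 had them below. These are 43.6% and 12.7% of the related genes, beside 25.6% and 24.7% of all named probe sets. The lists were chosen with earlier results of these data known, and no list test was made. The count higher was 4 without maltodextrin 3 and 8 without maltodextrin 4.

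Proprotein convertases, which cut the propeptides of membrane-type MMPs and ADAMTS enzymes, made up all 3 called genes of the 11 in the plasminogen and activator list. Pcsk6 measured 8.58 and 8.44 in maltodextrin, against 6.79 and 6.95 in control, a difference of 1.64 (SE 0.18). Its groups lay well apart, and it stayed between 1.57 and 1.72 with any 1 array left out. Pcsk5 differed by 1.20 (SE 0.27), a call lost without maltodextrin 3, and Furin by 0.63 (SE 0.17), a call lost without either maltodextrin array. Plasminogen activation genes were not called: urokinase (Plau) differed by -0.05 (SE 0.31) and its receptor Plaur by 0.13 (SE 0.23).

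Of 5 astacin proteases 2 were higher. Bmp1, which removes the carboxy-terminal propeptide of procollagens, measured 8.37 and 8.37 in maltodextrin, against 7.29 and 7.46 in control, a difference of 0.999 (SE 0.18). It kept between 0.92 and 1.08 with any 1 array left out. Mep1a, an epithelial meprin subunit, differed by 0.93 (SE 0.29), a call lost without control 1 or maltodextrin 3.

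Of 12 ADAM genes 3 were higher. Adamdec1, an ADAM-like protease of intestinal macrophages and stroma, measured 12.61 and 11.74 in maltodextrin, against 10.32 and 10.07 in control. Its difference of 1.98 (SE 0.34) was the largest of the 5 lists and ranged from 1.54 to 2.41 with any 1 array left out. Adam8 and Adam19 differed by 0.84 (SE 0.19) and 0.79 (SE 0.19), both calls lost without either maltodextrin array. The shedding enzymes Adam10 and Adam17 differed by 0.02 (SE 0.24) and -0.06 (SE 0.17).

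Of 9 other regulators 3 were higher. Thbs1, a thrombospondin that binds MMP2 and MMP9, measured 9.73 and 9.44 in maltodextrin, against 8.25 and 7.78 in control, a difference of 1.57 (SE 0.25) that stayed between 1.34 and 1.80. Reck, a membrane inhibitor of MMP2, MMP9 and MMP14, differed by 0.85 (SE 0.29), or 0.55 without control 2. Bsg, an inducer of MMPs, differed by 0.61 (SE 0.23), or 0.39 without control 2. Both of these calls were lost without control 2 or either maltodextrin array.

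Of 18 matrix substrates 2 were higher, the small proteoglycans Lum at 0.91 (SE 0.22) and Bgn at 0.59 (SE 0.22). The call of Lum was lost without maltodextrin 3, and that of Bgn without control 2 or either maltodextrin array. Fibronectin (Fn1), a substrate of many MMPs, measured 10.93 and 11.33 in maltodextrin, against 11.66 and 11.64 in control. Its groups did not overlap, and the difference of -0.52 (SE 0.21) did not meet the criterion.

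**Figure D5:**
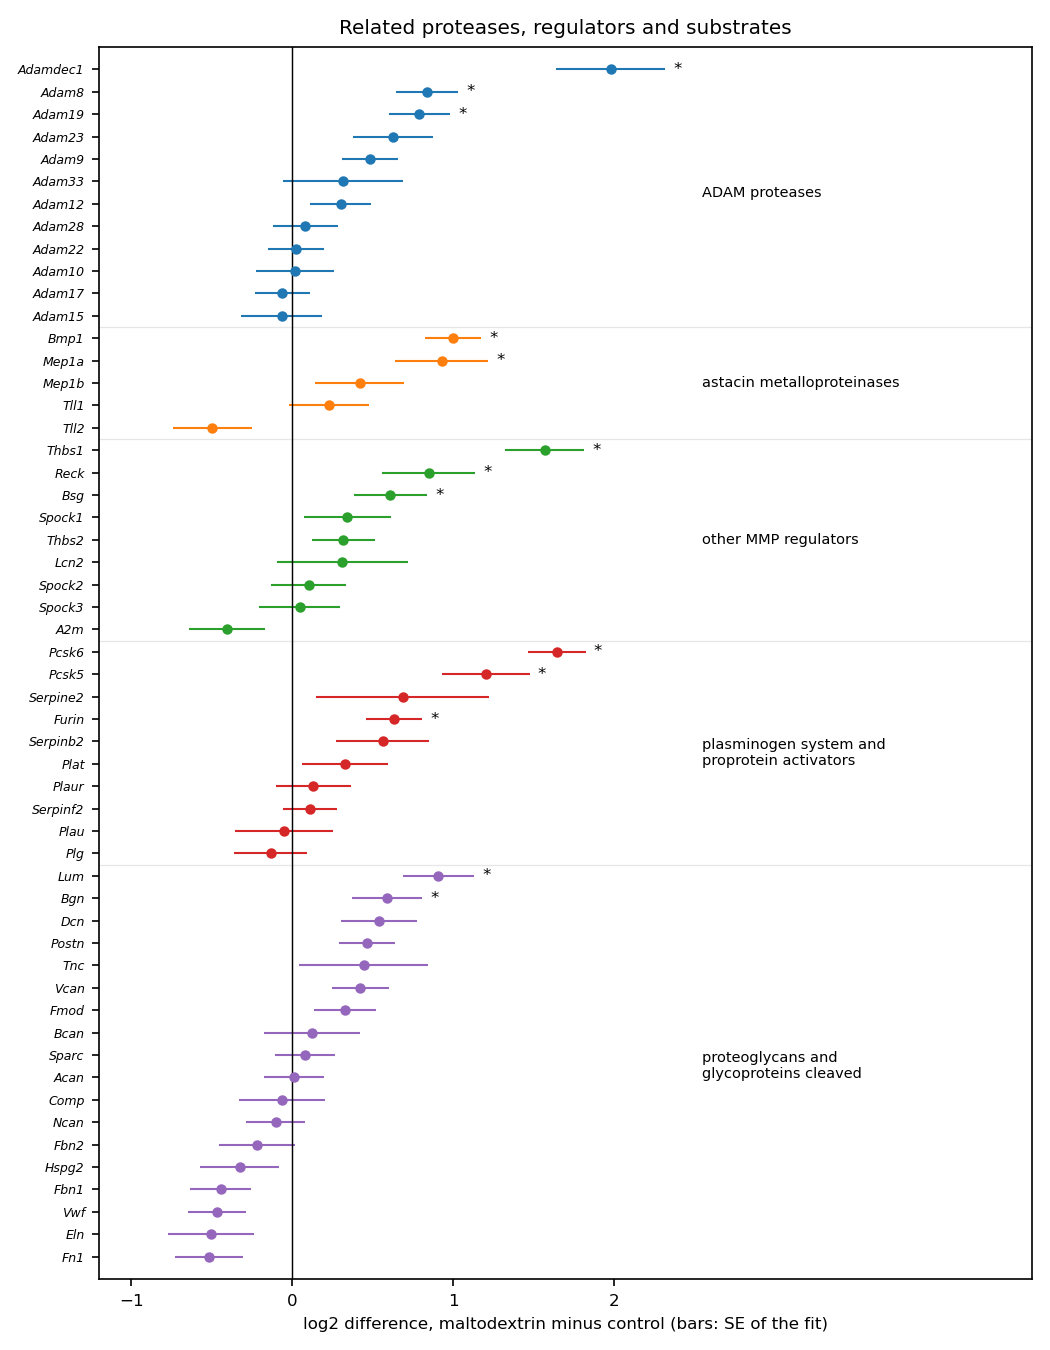
Differences of the related genes, with 1 not drawn (log2, maltodextrin minus control, horizontal axis) by list down the page, with bars for the SE of the limma fit over 2 and 2 arrays. Asterisks mark the 13 genes at the nominal criterion, which lie at 0.59 to 1.98.

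Facts of the 4 arrays bear on these results. Median log2 intensities were 5.20 and 5.24 in maltodextrin, against 5.35 and 5.22 in control. All 7 epithelial and all 7 smooth muscle markers lay above the receptor percentile, and 0 of either list were called. All 7 smooth muscle markers had a difference below 0, and 4 of them (57.1%, beside 24.7% of all named probe sets) did not overlap between the groups. Of 6 measured plasma cell markers 5 were higher, and of 7 mast cell markers 4 were higher, with Cpa3 at 3.50 (SE 0.39) and Mcpt1 at 3.59 (SE 1.04). These are 83.3% and 57.1%, beside 8.51% of all named probe sets. The means of 5 mast cell markers were not above the receptor percentile, with the called Mcpt2 and Mcpt4 among them. Mcpt1 measured 9.26 and 6.50 in maltodextrin, and its call was lost without control 2, with a difference of 2.86. All 7 B cell markers had a difference below 0, and 2 were lower at the criterion (Cr2 and Pax5). Those 2 are 28.6% of the list, beside 3.56% of all named probe sets. The part of these cell types in the members' differences was not tested. Pancreatic acinar markers stood out on control 2. Their summed log2 intensity was 8.57 and 9.10 in maltodextrin, against 9.203 on control 1 and 13.39 on control 2. All 10 differences were below 0, and 1 gene (10%, beside 3.56% of all named probe sets) was lower at the criterion. It was Amy2a5, at 5.66 and 5.35 in maltodextrin, against 7.63 on control 1 and 12.05 on control 2. The adipocyte sum was also highest on control 2, with 10.69 and 9.08 in maltodextrin, against 10.13 on control 1 and 11.71 on control 2. All 6 adipocyte markers had a difference below 0, and 0 were called. A part of either tissue in the members' differences was not tested. Control 2 was also the low array for Mmp13 and Mmp10 and the high one for Mmp14 and Mmp15. Without it the members at the nominal criterion were Mmp2, Mmp25, Mmp28 and Timp1.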

How the data were processed

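Expression was measured on 4 GeneChip Mouse Gene 2.0 ST arrays, 2 of maltodextrin and 2 of control colon, grouped by the labels. The deposited values are log2 intensities for 41345 probe sets, which sum probes over the exons of a gene. The submitters' processing notes name Partek 6.6. How background was corrected and how arrays were normalized and summarized was not given in the sources used here. Gene symbols, and the authors' ratio and p-value per probe set, came from the authors' deposited comparison table, per the file headers. The log2 of that ratio was within 8.7e-05 of the difference between group means.

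The 32202 probe sets with a symbol entered 1 limma 3.58.1 fit (lmFit, eBayes; R 4.3.3) of maltodextrin against control, tested on both sides, with 2 residual and 2.62 prior degrees of freedom and Benjamini-Hochberg adjustment. The fit was tested on simulated data. SE is that of the fit, and intervals are 95%. The nominal criterion is a fold of 1.5 or more and an unadjusted p below 0.05. Each gene is represented by its probe set with the highest mean. The genes named with values were the TIMPs, all members at the criterion, the 10 with the highest mean, those above the receptor percentile without overlap, and 8 MMPs best known in colon. Mmp16, Mmp17, Mmp24, Mmp28, Adamts1 and other members outside this rule were chosen after their values were seen. Members and lists were chosen with earlier results of these data known. The values of 1 related gene are not reported here. Of the related lists, genes at the criterion were named by rule, and others after their values were seen. The GC box was added as a motif after the promoters were read. Promoters and positions are RefSeq's (GRCm38.p6). Alternatives were a minimum mean log2 of 5, repeated quantile normalization, median centring, all rows of the value table, trend and robust eBayes, an equal-variance test, each array left out, the authors' deposited ratio and p-value, averaging the probe sets that share a symbol, and a fold of at least 2. The filter on mean log2 was followed by a new fit of the probe sets left. The number of arrays limits the precision.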

Additional observations from a re-analysis of the deposited data

How the results depend on the processing

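The count of members higher at the nominal criterion, 4 of 50, was 2 with a mean log2 of at least 5 (35 members left) and 2 with a fold of at least 2, and from 3 to 6 with 1 array left out. The count lower, 0, was 1 after quantile normalization applied again (Adamts15) and 0 to 1 with 1 array left out. Mmp2 and Mmp25 were called higher in every setting run, while Adamts2 lost its call in 9 of 12 and Timp1 in 2 of 11 at the fold of 1.5, and both lost it with a fold of at least 2. By the authors' deposited ratio and p-value Mmp2, Mmp25 and Timp1 were called, 3 in all. With 1 array left out, Mmp7 ranged from -0.147 (without maltodextrin 3) to 1.8318, Mmp14 from -0.4469 to 0.2281 (without control 2), and Mmp15 from -0.3715 to 0.1102 (without control 2), with 0.0016 without maltodextrin 3. Timp4 changed sign after quantile normalization applied again (0.0237), with median centring (0.0562), without control 1 (0.2476) and without maltodextrin 3 (0.4635), and was lowest without maltodextrin 4 (-0.4857). The cause was not tested. Of 285 values of 24 members over the alternatives, 258 kept their direction and side of the criterion, 11 lost the call, 8 gained one and 8 changed sign. The 13 related genes higher were 7 by the equal-variance test and by the authors' deposited values, 4 with a fold of at least 2, and 4 to 14 with 1 array left out. Related genes lower, 0, were 2 after quantile normalization applied again and 0 to 2 with 1 array left out. Of all named probe sets, 2739 higher and 1148 lower became 1261 and 354 by the equal-variance test and by the authors' deposited values, and 957 and 437 with a fold of at least 2, and the lower count was 564 with a mean log2 of at least 5. With 1 array left out they ranged from 973 to 3860 higher and from 315 to 3903 lower. In those fits a lone array is assumed to vary like the other group. The median difference of all probe sets was -0.04, against 0.14 among those with a mean log2 of 5 or more. No paired analysis was possible because the groups share no replicate numbers. Most MMPs of the chromosome 9 cluster lay near background, which limits what these arrays can show for them.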
